A study of Mus musculus with 8 samples.

Results

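The AP-1 and Batf family factors described here are 9 genes of the basic leucine zipper (bZIP) class: the Fos family (Fos, Fosb, Fosl1, Fosl2), the Jun family (Jun, Junb, Jund), Batf and Atf3. They were chosen by name as a known family, at a time when earlier results of these data were known. They are 9 of the 18193 genes represented on the arrays and were read by 13 probe sets. All 9 passed the filter on dim genes, which kept 13983 genes for testing.

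Messenger RNA of primary CD4+ T cells from BALB/c mice was measured on 8 Affymetrix arrays, 2 per group. Stimulated cells with dorsomorphin had plate-bound anti-CD3 and soluble anti-CD28 antibodies for 1 h and then 4 µM dorsomorphin for 6 h. Stimulated cells had the same antibodies and then the solvent DMSO for 6 h. Dorsomorphin cells had no antibodies and then the compound at the same dose and for the same time, and control cells had no antibodies and then DMSO. Dorsomorphin is a kinase inhibitor that acts on the type I receptors of bone morphogenetic proteins and on AMPK, a sensor of cellular energy. The comparisons address how the response to T cell receptor engagement changes when the compound is added. Whether the 2 arrays of a group represent different animals or cultures is not labelled, and the p-values reflect no more than the spread of these arrays, possibly technical.

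AP-1 is a dimer of a Jun protein with a Fos, Batf or ATF protein, held together by the leucine zipper and bound to DNA through the basic region. T cell receptor and CD28 signals reach AP-1 by several routes: MAP kinases switch on transcription of immediate early genes such as Fos within minutes, and the kinase JNK phosphorylates Jun. In T cells AP-1 binds cytokine gene promoters together with NFAT, and Batf-Jun dimers bind composite elements with Irf4. Fos mRNA is known to be short-lived, while Fosl1 and Batf are known to be induced later or more lastingly.

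Signals are the linear intensities the authors deposited, on arrays that all had a trimmed mean of 500, and median signals per array ran between 45.4 and 74.5. A signal of 37.3, the 40th percentile of all values, served as a working floor for dim probe sets. Replicate arrays had a correlation of 0.937 to 0.952 over the genes. Of the markers that define CD4+ T cells, 9 of the 10 listed were measured, and each was above the floor on at least 1 array of every group. Their summed signal was 39375 to 41841 in stimulated cells with dorsomorphin and 63123 to 63620 in stimulated cells, against 28122 to 37472 in dorsomorphin cells and 84531 to 85656 in control cells. The 14 myeloid and dendritic markers summed to 6299 to 7330, 5514 to 6808, 6388 to 6442 and 11009 to 18164 in those groups, the 7 CD8 T and NK markers to 778 to 1032, 1133 to 1254, 664 to 939 and 2037 to 2446, and the 10 B cell markers to 635 to 651, 437 to 617, 341 to 403 and 736 to 846, with Ebf1 under the floor on every array. All 4 marker sums were thus highest in control cells, and their part in the results below was not tested. In such bulk samples fewer cells of a type and less RNA per cell cannot be told apart.

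Of the 9 factors, Atf3 and Fosl1 changed past the threshold, and both did so in the same pair of comparisons. They were higher in stimulated than in control cells, where 8.98% of all genes tested were called higher. They were lower in stimulated cells with dorsomorphin than in stimulated cells, where 12.4% were called lower. Atf3 was 12.0-fold higher in the first and 13.2-fold lower in the second, and Fosl1 4.01-fold higher and 4.20-fold lower, or 3.35-fold and 3.32-fold with its signals under the working floor raised to it. Both Fosl1 calls were lost with no filter on dim genes. They were also lost with only the 2 groups of a comparison fitted, where the fall of Atf3 was lost too. Fos, Batf and, by a narrow margin, Junb also had their highest group means in stimulated cells, but their differences did not pass. Fosb, Fosl2, Jun, Junb and Jund did not pass in any comparison of this fit, which has no term for the replicate number. It is 1 limma fit over all 8 arrays, with Benjamini-Hochberg adjustment over the 13983 genes and a threshold of 0.05. A fit with that term, given at the end, also called Fos and Jund lower with dorsomorphin in stimulated cells. It called Batf higher on stimulation and Jund lower with dorsomorphin in unstimulated cells. Over all 13983 genes it called more as well. With dorsomorphin in stimulated cells 1968 were lower, against 1738 without the term. On stimulation 1499 were higher, against 1256, and with dorsomorphin in unstimulated cells 1924 were lower, against 1557. The comparisons of stimulated cells with control cells and of stimulated cells with dorsomorphin with stimulated cells share the stimulated arrays, so they are not independent of each other.

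**Figure D1:**
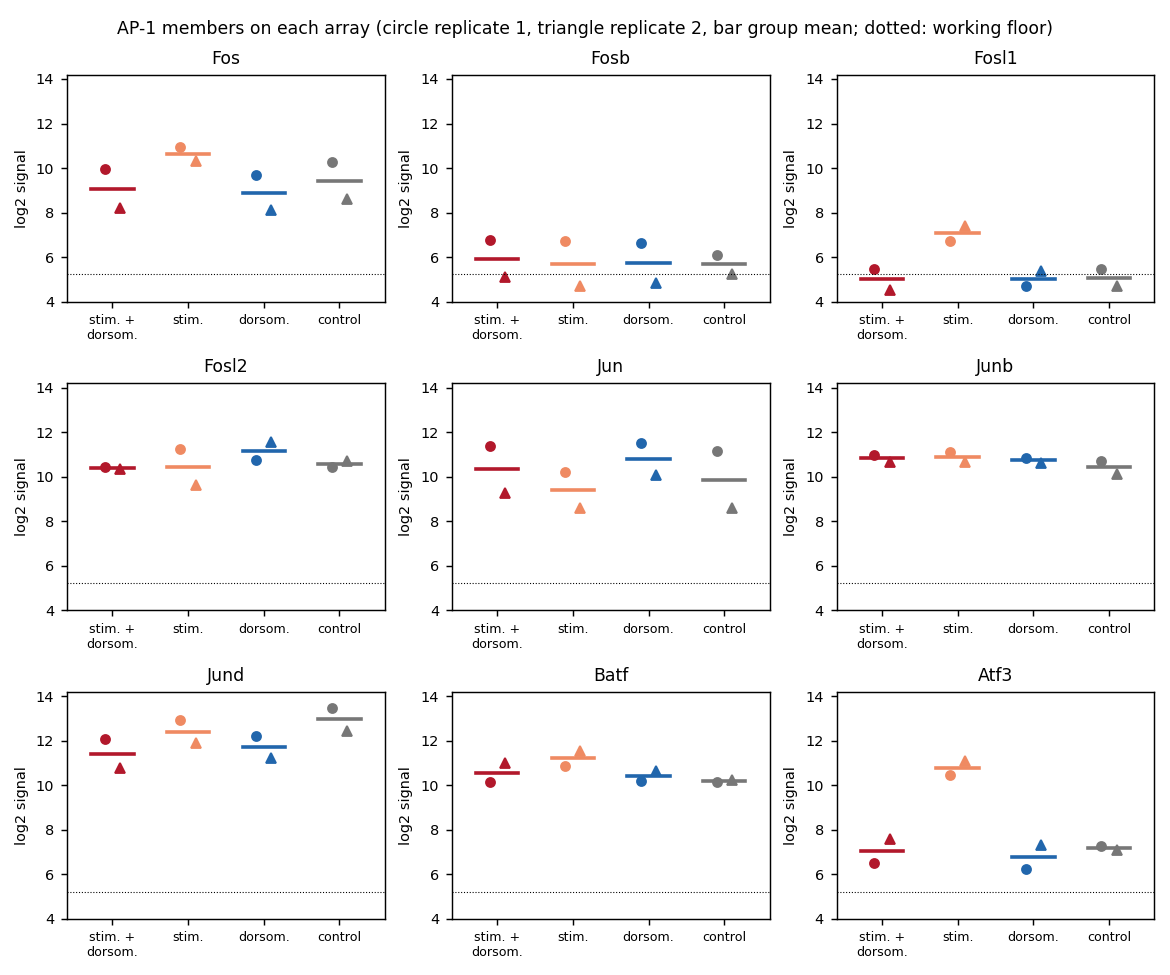
Log2 signal of the probe set used for each of the 9 factors on every array, by group. Circles are replicate 1, triangles replicate 2 and bars the mean of the 2 arrays; the dotted line is the working floor of log2 5.22, stim. is stimulated and dorsom. dorsomorphin. Atf3 and Fosl1 stand apart on the stimulated arrays, while in Jun, Fos and Fosb the circle lies far above the triangle in nearly every group.

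The promoters of Atf3, which had the largest change, and of Fos and Jun, the founding members of AP-1, are shown as the DNA from which the measured transcripts start. Each runs from 250 bases before to 50 bases after the start on the gene's own strand, from RefSeq on mouse build GRCm38.p6. Atf3 is on the minus strand at chr1:191183284-191183583, Fos on the plus strand at chr12:85473640-85473939 and Jun on the minus strand at chr4:95052173-95052472. Capitals mark TGACGT or its reverse complement ACGTCA, a part of the cAMP response element, in Atf3 and Fos, and in Jun the variant TGACATCA. The shorter half-site TGACG was not searched for and is not marked outside these matches.
Atf3: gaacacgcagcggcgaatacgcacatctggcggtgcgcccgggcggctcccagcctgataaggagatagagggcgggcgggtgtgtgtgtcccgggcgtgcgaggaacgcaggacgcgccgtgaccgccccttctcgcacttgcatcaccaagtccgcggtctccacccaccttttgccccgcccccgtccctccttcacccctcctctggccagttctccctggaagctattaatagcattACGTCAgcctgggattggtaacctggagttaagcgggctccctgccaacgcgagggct
Fos: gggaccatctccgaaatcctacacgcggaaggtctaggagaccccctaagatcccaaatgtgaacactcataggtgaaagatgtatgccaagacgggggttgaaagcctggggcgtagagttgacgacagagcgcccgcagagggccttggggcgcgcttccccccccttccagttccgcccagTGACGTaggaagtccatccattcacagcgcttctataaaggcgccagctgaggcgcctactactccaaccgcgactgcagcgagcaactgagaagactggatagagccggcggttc
Jun: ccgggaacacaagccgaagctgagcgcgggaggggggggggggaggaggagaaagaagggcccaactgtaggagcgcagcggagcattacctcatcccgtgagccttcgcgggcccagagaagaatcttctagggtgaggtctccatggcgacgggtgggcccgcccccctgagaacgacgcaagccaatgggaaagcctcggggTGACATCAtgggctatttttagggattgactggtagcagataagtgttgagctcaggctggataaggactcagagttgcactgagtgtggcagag

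These motifs were chosen with the sequences in view, and both strands were searched. RefSeq promoters were matched for 8 of the 9 factors, all but Fosl1. TGACGT was in 3 of the 8, at position -66 from the start in Fos, -98 in Batf and, on the opposite strand, -8 in Atf3. TGACATCA was in Jun alone of the 8, at position -45. The AP-1 element TGANTCA and the CArG box bound by serum response factor had no match in any of these 8 windows. Sequence outside the windows was not searched. Whether Fos or another factor has such a site further upstream cannot be told from them. Of 32841 promoters of the same length, 7.51% held TGACGT, 7.81% TGANTCA, 3.62% TGACATCA and 1.63% a CArG box. The motifs do not overlap one another, and a match describes the letters only.

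Atf3 encodes a stress-inducible bZIP factor that dimerises with Jun proteins. Its signal (probe set 1449363_at) was 90.5 and 192 on the arrays of stimulated cells with dorsomorphin (replicates 1 and 2) and 1395 and 2174 on those of stimulated cells. It was 75.8 and 158 in dorsomorphin cells and 156 and 136 in control cells. The stimulated arrays thus stood above the other 6, which overlapped one another. Dorsomorphin in stimulated cells gave a log2 fold of -3.72 ± 0.52 (SE, n = 2 arrays per group, limma adjusted p = 0.00895). Stimulation without dorsomorphin gave 3.58 ± 0.52 (limma adjusted p = 0.0122). When 1 array was left out, the log2 fold was -4.27 to -3.18 for the fall with dorsomorphin, which passed each time, and 3.26 to 3.90 for the rise. The rise did not pass without control replicate 1, control replicate 2 or stimulated replicate 2. Such fits leave 1 array in a group, and their counts over all genes are given at the end. The fall did not pass when only the arrays of the 2 groups were fitted (limma adjusted p = 0.0612), where 0 of all genes were called higher and 0 lower.

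Fosl1 encodes Fra-1, a Fos protein that lacks the transactivation region of Fos and is itself a target of AP-1. It has a pair of probe sets, and the one with the higher mean over the arrays (1417488_at) was used. Its signal was 44.3 and 23.3 in stimulated cells with dorsomorphin, 107 and 170 in stimulated cells, 26.2 and 40.9 in dorsomorphin cells and 43.5 and 26.0 in control cells. In each of the other 3 groups only 1 of the 2 arrays was above the working floor, and both stimulated arrays were above all 6 of them. The log2 fold was -2.07 ± 0.48 for dorsomorphin in stimulated cells (limma adjusted p = 0.0316) and 2.004 ± 0.48 for stimulation without dorsomorphin (limma adjusted p = 0.0340). With signals under the floor raised to it before the fit, an alternative added after the data were seen that removes the spread under the floor, the log2 folds were -1.73 and 1.74 and both passed (adjusted p 0.00425 and 0.00445). When 1 array was left out, which leaves 1 array in its group, the log2 fold was -2.53 to -1.61 for the fall and 1.63 to 2.38 for the rise. The fall was lost without any 1 of the control arrays, the stimulated arrays or the arrays of stimulated cells with dorsomorphin. It was also lost with no filter on dim genes (limma adjusted p 0.0543) or only the 2 groups fitted (0.0914), where 0 of all genes were called higher and 0 lower. The rise was lost without any 1 of the control, dorsomorphin or stimulated arrays, and with no filter (0.0580) or only 2 groups (0.0605).

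The other Fosl1 probe set (1417487_at) read 4.98 and 12.9 in stimulated cells with dorsomorphin, 377 and 1148 in stimulated cells, 36.5 and 33.3 in dorsomorphin cells and 39.9 and 3.99 in control cells. It set the same arrays apart. When every probe set was fitted on its own, an alternative added after the data were seen, it was at least 17.6-fold lower with dorsomorphin in stimulated cells (limma adjusted p = 0.0200 over 31996 probe sets), a bound because both arrays with dorsomorphin lay under the floor. On stimulation without dorsomorphin it was higher in the same fit (adjusted p = 0.0314), by 17.0-fold with the control array under the floor raised to it, since only 1 of the 2 control arrays was above the floor. In that fit 8.46% of probe sets were lower with dorsomorphin in stimulated cells and 5.89% higher on stimulation without it.

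Fos encodes the founding Fos protein, the classical immediate early partner of Jun. Its signal (1423100_at) was 997 and 291 in stimulated cells with dorsomorphin, 1998 and 1281 in stimulated cells, 825 and 276 in dorsomorphin cells and 1233 and 385 in control cells. Both stimulated arrays were above the other 6, by a narrow margin for replicate 2 over the first control array. The log2 fold was -1.57 ± 0.89 for dorsomorphin in stimulated cells (limma adjusted p = 0.264, 95% interval -3.75 to 0.61) and 1.22 ± 0.89 for stimulation without it (adjusted p = 0.372, interval -0.97 to 3.40). Neither passed, and the replicates of stimulated cells with dorsomorphin, of dorsomorphin cells and of control cells differed among themselves by 1.77, 1.58 and 1.68 on the log2 scale.

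Fosb encodes a Fos protein that is induced with Fos in many cells. Its signal (1422134_at) was 108 and 33.9 in stimulated cells with dorsomorphin, 107 and 25.7 in stimulated cells, 100.1 and 28.2 in dorsomorphin cells and 69.1 and 37.4 in control cells. The replicates differed more than the groups: the largest difference within a group was 2.05 on the log2 scale and the largest between group means 0.25. Replicate 2 was under the floor in all groups but the control, where it lay just above it.

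Fosl2 encodes Fra-2, a Fos protein with roles in T helper cell differentiation. Its probe set with the higher mean (1437247_at) read 1376 and 1283 in stimulated cells with dorsomorphin, 2445 and 782 in stimulated cells, 1739 and 2966 in dorsomorphin cells and 1360 and 1645 in control cells. Only the dorsomorphin arrays stood above the control arrays without overlap, at a log2 fold of 0.60 ± 0.57, which did not pass (limma adjusted p = 0.525). With dorsomorphin present, stimulated cells were below unstimulated cells without overlap as well (log2 fold -0.77 ± 0.57), where 10.2% of all genes were, and this did not pass either.

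The other Fosl2 probe set (1422931_at) had another pattern, with 783 and 220 in stimulated cells with dorsomorphin, 134 and 66.3 in stimulated cells, 762 and 675 in dorsomorphin cells and 127 and 84.1 in control cells. All 4 arrays with dorsomorphin were above all 4 without it. Fitted on its own, its log2 fold was 2.14 ± 0.67 for dorsomorphin in stimulated cells (limma adjusted p = 0.0774) and 2.79 ± 0.67 for dorsomorphin in unstimulated cells (adjusted p = 0.0590), neither past the threshold. The pair of probe sets thus disagreed on dorsomorphin in stimulated cells, where the first gave -0.06 ± 0.57 and the mean of the pair 1.04, so the response of Fosl2 is uncertain.

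**Figure D2:**
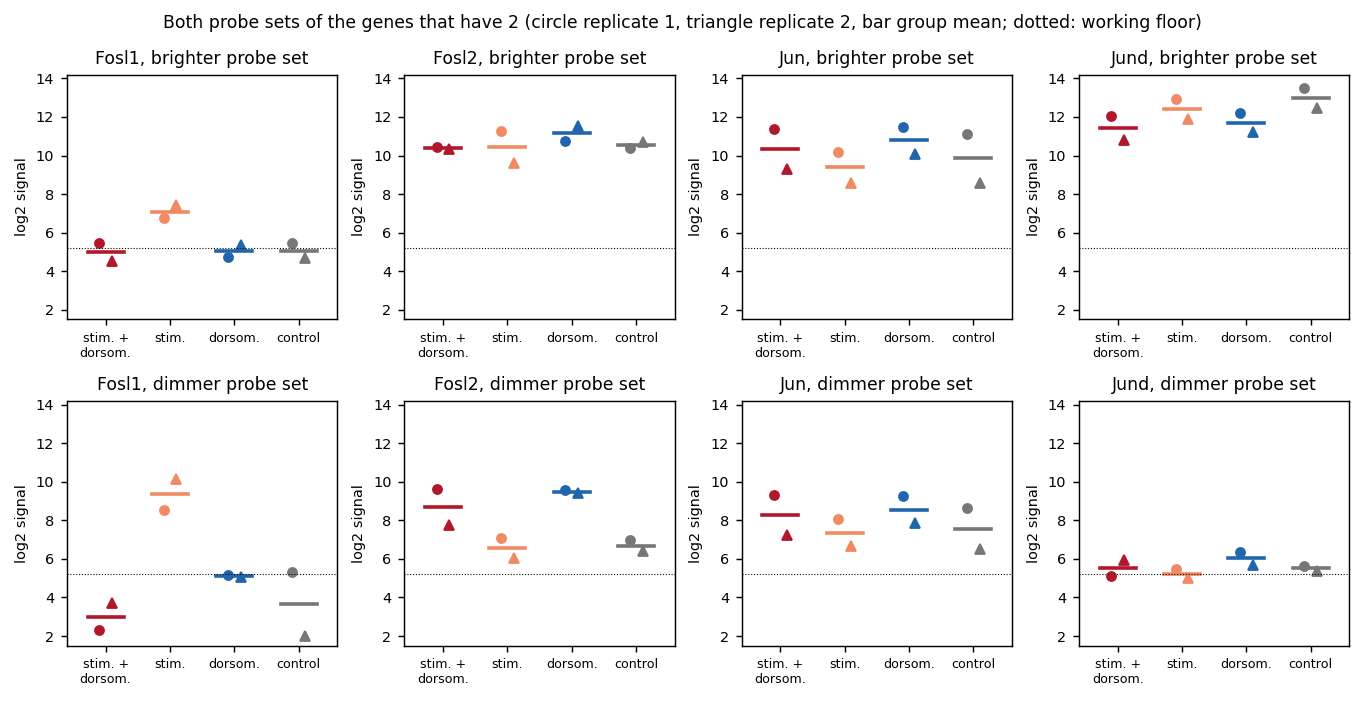
Log2 signal on every array for the 4 factors with a pair of probe sets, the one with the higher mean over the arrays above and the other below. Circles are replicate 1, triangles replicate 2, bars group means and the dotted line the floor of log2 5.22; stim. is stimulated and dorsom. dorsomorphin. Both Fosl1 probe sets are highest in stimulated cells, and in the lower row Fosl2 is higher on all 4 arrays with dorsomorphin.

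Jun encodes the Jun protein that JNK phosphorylates, the main partner of Fos. Its signal (1417409_at) was 2658 and 620 in stimulated cells with dorsomorphin, 1180 and 384 in stimulated cells, 2893 and 1086 in dorsomorphin cells and 2257 and 382 in control cells. Replicate 1 was higher in all 4 groups, and the groups overlapped in every comparison. The log2 fold was 0.93 ± 1.17 for dorsomorphin in stimulated cells (limma adjusted p = 0.618, 95% interval -1.93 to 3.80) and -0.46 ± 1.17 for stimulation without it (adjusted p = 0.808). The second Jun probe set (1448694_at) read 626 and 149, 267 and 103, 619 and 230, and 399 and 90.1 in the same 4 groups, with the same order of replicates.

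Junb encodes a Jun protein that pairs with Batf in helper T cells. Its signal (1415899_at) was 2028 and 1623 in stimulated cells with dorsomorphin, 2177 and 1592 in stimulated cells, 1805 and 1583 in dorsomorphin cells and 1647 and 1121 in control cells. It varied least of the 9 over the 8 arrays, within 0.96 on the log2 scale. The log2 fold was -0.04 ± 0.30 for dorsomorphin in stimulated cells (limma adjusted p = 0.946), with a 95% interval of -0.78 to 0.71, and 0.45 ± 0.30 for stimulation without it (adjusted p = 0.331).

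Jund encodes a Jun protein that is present in resting cells and restrains their growth. Its signal (1449117_at) was 4239 and 1760 in stimulated cells with dorsomorphin, 7681 and 3812 in stimulated cells, 4681 and 2369 in dorsomorphin cells and 11437 and 5575 in control cells. Both dorsomorphin arrays were below both control arrays, with a log2 fold of -1.26 ± 0.66 (limma adjusted p = 0.253). In stimulated cells the groups overlapped, with a log2 fold of -0.99 ± 0.66 (adjusted p = 0.338). In both comparisons replicate 1 of either group was above its replicate 2. The other Jund probe set (1440265_at) stayed between 31.9 and 83.3, near the floor, on all arrays. Fitted on its own, it had the opposite direction with dorsomorphin. The log2 fold was 0.53 ± 0.41 in unstimulated cells (limma adjusted p = 0.451) and 0.29 ± 0.41 in stimulated cells (adjusted p = 0.655).

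Batf encodes a small bZIP protein with no transactivation region of its own, needed for Th17 and follicular helper T cells. Its signal (1419410_at) was 1126 and 2024 in stimulated cells with dorsomorphin, 1854 and 3006 in stimulated cells, 1171 and 1589 in dorsomorphin cells and 1145 and 1199 in control cells. Both stimulated arrays were above both control arrays, with a log2 fold of 1.01 ± 0.39 and a 95% interval of 0.04 to 1.98 that did not pass after adjustment (limma adjusted p = 0.119). It passed when limma's variance trend and robust option were used (0.0368). With that setting 1721 of the 13983 genes were called higher on stimulation without dorsomorphin, against 1256 in the main fit. Dorsomorphin in stimulated cells gave -0.64 ± 0.39 (adjusted p = 0.299), with overlapping arrays.

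Counted over the family, dorsomorphin in stimulated cells lowered 2 of the 9 factors and raised 0, where 12.4% of all genes tested were called lower and 9.71% higher. Stimulation without dorsomorphin raised 2 of the 9 and lowered 0, where 8.98% of all genes were called higher and 14.4% lower. The median log2 fold of the 9 was -0.64 and 0.45 in these comparisons, against 0.07 and -0.27 over all genes tested. Median centring shifted the median of all genes to -0.18 and 0.08, and with it the genes called numbered 689 higher and 1520 lower with dorsomorphin (1358 and 1738 without centring), and 1001 higher and 1040 lower on stimulation (1256 and 2013 without). Fos, Fosl1 and Atf3 were lower with dorsomorphin without overlap between the arrays, 3 of the 9, where 29.1% of all genes were. On stimulation these 3 and Batf were higher without overlap, 4 of the 9, where 25.1% of all genes were.

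In unstimulated cells dorsomorphin changed 0 of the 9 factors past the threshold, where 1.92% of all genes were called higher and 11.1% lower. At an unadjusted p under 0.05 there were 0 of the 9, where 31.4% of all genes were. Log2 folds ran between -1.26 for Jund and 0.93 for Jun, with a median of 0.06 against -0.24 over all genes tested. Atf3 had -0.41 ± 0.52 and Fosl1 -0.04 ± 0.48 there. Fosl2 was higher and Jund lower without overlap of the arrays, where 23.2% and 42.3% of all genes were.

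Under dorsomorphin no factor separated stimulated from unstimulated cells past the threshold. Of the 9, 0 passed the limma test and 0 had an unadjusted p under 0.05; 0% of the 13983 genes passed, although 539 (3.85%) had an unadjusted p under 0.05. The log2 fold of Atf3 was 0.27 ± 0.52, with a 95% interval of -1.01 to 1.55, against 3.58 in the absence of the compound. That of Fosl1 was -0.03 ± 0.48 (interval -1.20 to 1.15), against 2.004.

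The interaction term tests whether the response to stimulation differed with dorsomorphin present. It called 0 of the 9 factors by limma, where 0.0358% of all genes were called higher and 0.0501% lower. Atf3 and Fosl1, 2 of the 9, had an unadjusted p under 0.05, where 26.4% of all genes had. The term was -3.31 ± 0.74 for Atf3 (adjusted p = 0.0790) and -2.03 ± 0.68 for Fosl1 (adjusted p = 0.134). Over the alternatives the adjusted p of Atf3 ran between 0.0116 and 0.243, and it passed with a stricter filter (0.0265), with 16 added before the log (0.0387), with signals raised to the floor (0.0303) and when the variance trend and robust option were used (0.0116). Fosl1 passed with signals raised to the floor (0.0370). The rise of these factors without dorsomorphin was thus called, and whether a difference between the responses was called depended on the setting.

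**Figure D3:**
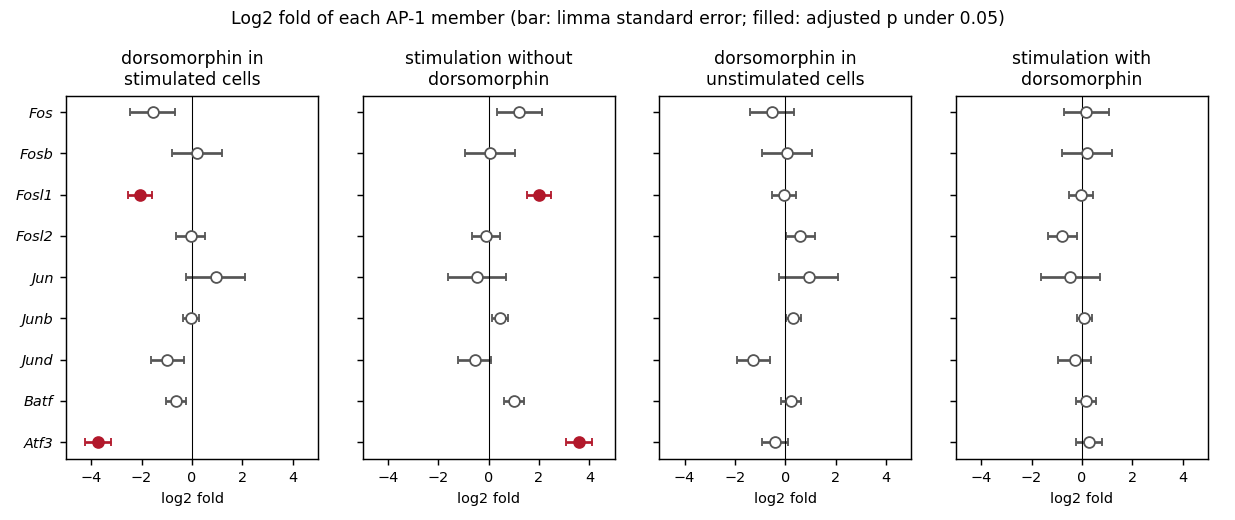
Log2 fold of each of the 9 factors in the 4 comparisons of 2 groups, with limma's standard error as the bar. Filled points have an adjusted p under 0.05: Atf3 at -3.72 and Fosl1 at -2.07 with dorsomorphin in stimulated cells, and Atf3 at 3.58 and Fosl1 at 2.004 on stimulation without it.

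Within groups, 6 of the 9 factors had 1 order of the replicate numbers throughout. Replicate 1 was above replicate 2 in all 4 groups for Fos (by 0.64 to 1.77 on the log2 scale), Fosb (0.89 to 2.05), Jun (1.41 to 2.56), Junb (0.19 to 0.56) and Jund (0.98 to 1.27), 5 of the 9, where 19% of all genes tested had that order. Batf had the opposite order in all groups (-0.85 to -0.07), as had 10.8% of all genes. In all, 14 genes (0.1%) were higher on replicate 1 in every group by at least the smallest difference of Jun, 42 (0.3%) by that of Jund, 58 (0.415%) by that of Fosb, 148 (1.06%) by that of Fos and 1175 (8.4%) by that of Junb. Fosl1, Fosl2 and Atf3 did not keep 1 order in all groups. Nor did the immediate early genes Egr1 (-1.33 to 0.87), Ier2 (-0.17 to 0.53), Ier3 (-0.34 to 1.02) and Ier5 (-0.44 to 0.08). They are among 13 genes tested below for the route of serum response factor. Of the 13, 3 (Mrtfa, Mrtfb and Mef2d) were higher on replicate 1 in all groups and 0 on replicate 2. Among the 8 tested genes of AU-rich mRNA decay, Zfp36 was higher on replicate 1 in all groups (0.46 to 0.81) and Elavl1 on replicate 2 (-0.65 to -0.26).

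The labels do not say what the number marks. Some signals of RNAs spiked in before labelling differed with it and others did not. On the log2 scale the 3' probe set of Dap exceeded its 5' probe set by 1.11 to 1.37 on the arrays of replicate 1 and 2.44 to 2.79 on those of replicate 2, and for Thr this difference was 1.62 to 1.76 and 2.69 to 3.29. Lys was close to no split, at 1.31 to 1.758 on replicate 1 and 1.758 to 2.21 on replicate 2. Phe did not split, since 0.75 to 0.92 on replicate 1 overlapped 0.83 to 1.07 on replicate 2. Of the mouse controls, Gapdh split narrowly (-0.59 to -0.46 and -0.42 to -0.18) and actin did not (0.33 to 0.51 and 0.33 to 0.80). The part of these differences in the spread of Fos, Fosb, Jun and Jund was not tested.

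With 1 array per group and number no test can be made inside a number, and the differences between groups are given for replicate 1 and then for replicate 2. Dorsomorphin in stimulated cells gave log2 differences of -3.95 and -3.50 for Atf3, -1.27 and -2.87 for Fosl1 and -1.003 and -2.14 for Fos. For Jund they were -0.86 and -1.12, and for Batf -0.72 and -0.57. Both differences of each of these 5 genes had the same sign, also where the arrays of the groups overlapped across the numbers. Those of Jun (1.17 and 0.69) and Fosb (0.02 and 0.40) agreed in sign as well, but upward. Those of Fosl2 and Junb did not agree. How many of all genes agree in sign was not counted, so this agreement is a description only. Stimulation without dorsomorphin gave 3.16 and 4.00 for Atf3, 1.30 and 2.71 for Fosl1 and 0.70 and 1.33 for Batf. It gave 0.70 and 1.74 for Fos, 0.40 and 0.51 for Junb and -0.57 and -0.55 for Jund. The differences of Fosb, Fosl2 and Jun did not agree in sign there. In unstimulated cells dorsomorphin gave -1.29 and -1.23 for Jund and -0.58 and -0.48 for Fos. Upward differences were 0.35 and 0.85 for Fosl2, 0.36 and 1.51 for Jun, 0.13 and 0.50 for Junb and 0.03 and 0.41 for Batf. Those of Fosb, Fosl1 and Atf3 did not agree in sign.

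**Figure D4:**
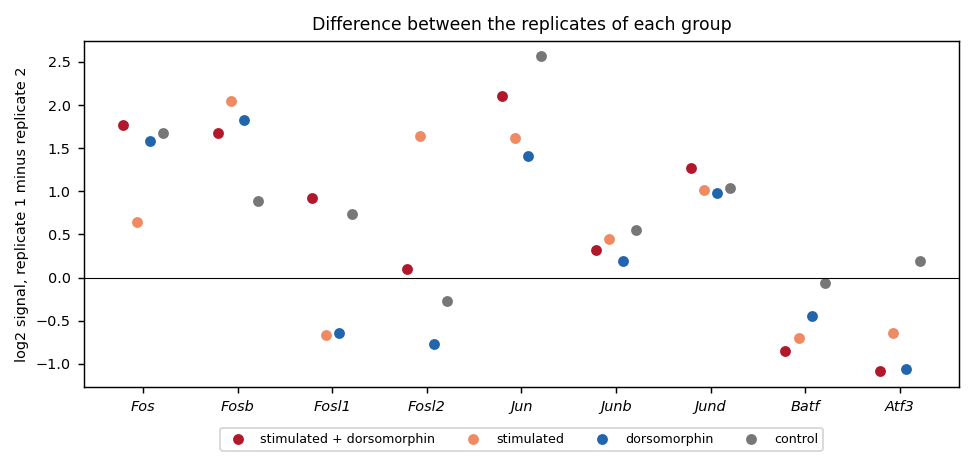
Log2 signal of replicate 1 minus replicate 2 for each of the 9 factors, 1 point per group. All 4 points lie above 0 for Fos, Fosb, Jun, Junb and Jund, and all 4 lie under 0 for Batf.

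The other bZIP genes that pair or compete with AP-1 were tested for 21 of 23 listed. For this list and those below, the shares of all genes called stand beside the counts. With dorsomorphin in stimulated cells 9.71% were higher and 12.4% lower, and on stimulation without dorsomorphin 8.98% and 14.4%. In unstimulated cells they were 1.92% and 11.1% with dorsomorphin. With dorsomorphin in stimulated cells 3 of the 21 were called higher and 2 lower by limma, with a median log2 fold of -0.12 against 0.07 over all genes tested. Crem, which encodes cAMP-responsive activators and the repressor ICER, led them with signals of 14234 and 15056 in stimulated cells with dorsomorphin, against 3412 and 1255 in stimulated cells. Its log2 fold was 2.82 ± 0.48 (adjusted p = 0.0141). In unstimulated cells Crem read 17011 and 23606 with dorsomorphin, against 3726 and 3711 in control cells (2.43 ± 0.48, adjusted p = 0.0315). All 4 arrays with dorsomorphin were thus above all 4 without it, while the mean of all its probe sets did not pass in either comparison (0.0797 and 0.0760).

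Ddit3, the stress factor CHOP, rose by 1.63 ± 0.26 (adjusted p = 0.0121) and Nfe2l2, the oxidative stress factor Nrf2, by 1.29 ± 0.27 (adjusted p = 0.0241) with dorsomorphin in stimulated cells, while Maff fell by 1.40 ± 0.35 (adjusted p = 0.0394). On stimulation without dorsomorphin 2 of the 21 were higher and 3 lower. Among these Atf4, a driver of amino acid stress genes, was at 1.04 ± 0.22 and Nfe2l2 at -1.32 ± 0.27. In unstimulated cells 2 rose with dorsomorphin, Crem and Atf4 (1.01 ± 0.22), and 1 fell, Bach2 (-1.12 ± 0.24), a repressor that competes with AP-1 for its sites.

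Of the MAP kinase cascades that activate AP-1, 14 of the 20 listed genes were tested, and the other 6 were not analysed here. With dorsomorphin in stimulated cells 2 were called higher and 2 lower, with a median log2 fold of 0.29. Map3k1, which acts upstream of JNK, was higher by 2.05 ± 0.44 and Mapk8, which encodes JNK1, by 1.61 ± 0.41, while Map2k2, a kinase of ERK, was at -1.86 ± 0.20 and Map2k3, a kinase of p38, at -1.68 ± 0.36. On stimulation without dorsomorphin Map2k3 rose (2.52 ± 0.36), and 3 fell, Map3k1 (-1.98 ± 0.44), Map2k6 (-1.61 ± 0.39) and Mapk14 (-0.82 ± 0.23), which encodes p38 alpha. In unstimulated cells 0 rose and 4 fell with dorsomorphin, led by Araf (-1.98 ± 0.34) and Map2k2 (-1.75 ± 0.20). Braf (-1.08 ± 0.22) was among these 4, but turned to 0.15 when all its probe sets were averaged.

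Serum response factor and its ternary complex partners bind the Fos promoter, and 13 genes of this route and its early targets were tested. With dorsomorphin in stimulated cells 1 was called higher and 4 lower. Egr1, an immediate early gene driven by this route, read 691 and 1739 in stimulated cells with dorsomorphin, against 15733 and 9894 in stimulated cells, and 486 and 371 in dorsomorphin cells, against 1416 and 777 in control cells. It rose by 3.57 ± 0.55 on stimulation without dorsomorphin (limma adjusted p = 0.0133) and fell by 3.51 ± 0.55 with dorsomorphin in stimulated cells (adjusted p = 0.0117). Srf itself fell by 1.45 ± 0.24 and Ier3 by 1.57 ± 0.38 in that second comparison, while Mef2d was higher by 1.98 ± 0.41. On stimulation 1 of the 13 was higher and 3 lower, among them the Srf coactivator Mrtfa (-2.55 ± 0.46). In unstimulated cells 2 fell with dorsomorphin, Elk3 (-2.38 ± 0.40) and Mrtfb (-1.42 ± 0.22, but 0.25 when all its probe sets were averaged).

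Partners that bind DNA beside AP-1 or Batf were tested for all 10 listed. On stimulation without dorsomorphin 4 were called higher and 2 lower. Irf4, the partner of Batf-Jun dimers, read 132 and 776 in stimulated cells with dorsomorphin and 13837 and 18617 in stimulated cells, and 63.0 and 125 in dorsomorphin cells and 303 and 179 in control cells. It rose by 6.11 ± 0.86 on stimulation (limma adjusted p = 0.0119) and fell by 5.65 ± 0.86 with dorsomorphin in stimulated cells (adjusted p = 0.0109). Irf8, which can replace Irf4 in these complexes, had 4.02 ± 0.85 and -3.96 ± 0.85 in the same comparisons. With dorsomorphin in stimulated cells 3 of the 10 were higher and 3 lower, with Nfatc3 at 1.49 ± 0.22 and Nfatc2 at -1.75 ± 0.29, and in unstimulated cells 2 were higher, Rel (1.68 ± 0.37) and Ets2 (1.25 ± 0.23), and 1 lower, Nfatc2 (-1.90 ± 0.29). The direction of Nfatc2 turned when all its probe sets were averaged, to 0.40 and 0.53.

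Of 13 T cell genes with known AP-1 elements, 10 were called higher on stimulation without dorsomorphin and 0 lower, and 10 were called lower with dorsomorphin in stimulated cells and 0 higher. The 3 that did not pass in these comparisons were Icos, Ctla4 and Csf2. The median log2 fold was 4.86 and -4.27, or 4.24 and -3.90 with genes under the floor at their bound, against -0.27 and 0.07 over all genes tested. Il2, the growth factor of T cells, read 18.8 and 93.7 in stimulated cells with dorsomorphin and 6414 and 18509 in stimulated cells, and 23.0 and 75.7 in dorsomorphin cells and 30.5 and 80.8 in control cells. Its log2 fold was -8.02 ± 1.05 with dorsomorphin in stimulated cells (limma adjusted p = 0.00817) and 7.78 ± 1.05 on stimulation (adjusted p = 0.0113). Ifng had -6.39 ± 0.52 and 6.14 ± 0.52 there, and Il3 was at least 22.0-fold lower and higher, since it lay under the floor on every array but the stimulated ones. In unstimulated cells dorsomorphin changed 0 of the 13. Under dorsomorphin, stimulation changed 0 of the genes of any of these lists past the threshold, where 0% of all 13983 genes tested passed.

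**Figure D5:**
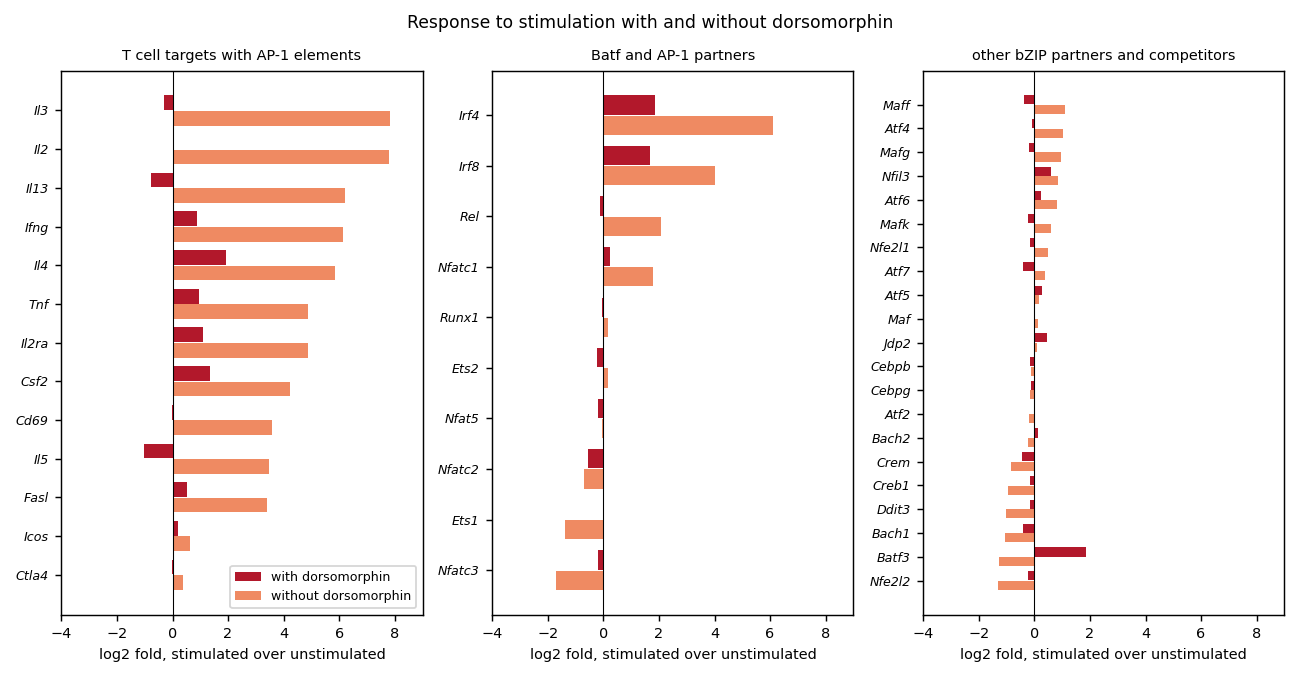
Log2 fold of stimulated over unstimulated cells with dorsomorphin and without it, for the genes of 3 lists, as horizontal bars. For Irf4, Il2 and Ifng the bars without dorsomorphin reach 6.11, 7.78 and 6.14. Under dorsomorphin 0 genes of these lists passed the test, where 0% of all genes tested did. Bars of genes under the floor, such as Il3, are fitted values and not bounds.

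Proteins that bind AU-rich elements shorten or lengthen the life of Fos and cytokine mRNAs. They were listed together with deadenylase genes, and 8 of the 9 listed genes were tested. With dorsomorphin in stimulated cells 0 were called higher and 3 lower, namely Hnrnpd (-1.998 ± 0.22), the deadenylase gene Parn (-1.97 ± 0.26) and Zfp36l1 (-0.86 ± 0.20). On stimulation without dorsomorphin Hnrnpd (1.09 ± 0.22) and Zfp36l1 (0.76 ± 0.20) rose and Zfp36l2 fell by 1.60 ± 0.34. In unstimulated cells Parn fell by 2.14 ± 0.26 with dorsomorphin.

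These list calls depended on single arrays and on settings, as did the counts over all genes given at the end. Of the 23 list genes named by the rule per comparison, 10 to 19 still passed for dorsomorphin in stimulated cells when 1 array was left out. For stimulation without dorsomorphin 0 of 23 passed without either control array and 3 without stimulated replicate 2, and 16 to 18 without any other array. Of the 13 named for dorsomorphin in unstimulated cells 0 passed without either control array or without dorsomorphin replicate 2, and 6 to 9 without any other array. No direction of these genes turned when 1 array was left out. In the same 3 comparisons 16 of 23, 13 of 23 and 2 of 13 passed with the mean of all probe sets, 20, 15 and 5 with median centring, 19, 17 and 6 with no filter, and 0, 11 and 4 with only the 2 groups fitted. That last setting called 0 of all genes higher and 0 lower for dorsomorphin in stimulated cells. For dorsomorphin in stimulated cells the mean of all probe sets ended the calls of Ddit3 (adjusted p 0.309), Mapk8 (0.198), Mef2d (0.202), Srf (0.135) and Maff (0.0509) as well as that of Crem. Nfatc2 changed direction there (0.40 on the log2 scale). On stimulation it ended the calls of Ddit3 (0.953), Mapk14 (0.730), Creb1 (0.543), Mrtfb (0.363), Mef2d (0.238) and Atf4 (0.117), and those of Hnrnpd (0.0792), Map3k1 (0.0692), Zfp36l1 (0.0640) and Zfp36l2 (0.0623). In unstimulated cells Map2k2 and Parn were the only ones of the 13 to pass with it, and Braf (0.15), Mrtfb (0.25) and Nfatc2 (0.53) changed direction.

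The pattern of each factor over the 8 arrays was set beside that of the 13982 other genes tested by Pearson's correlation of log2 signals, as a description over arrays that share groups and replicate numbers. Atf3 was closest to Sco2 (r = 0.996), Nsun5 (0.994) and Sf3b3 (0.993), with 365 genes above 0.95. Fosl1 was closest to Utp15 (0.973), the cytokine gene Il21 (0.969) and Kcnk5 (0.969), and Batf to Polr1c (0.990), Prpf38a (0.988) and Hpf1 (0.986). Jund was closest to Zfp36 (0.982), Prf1 (0.980) and Trim8 (0.964), and Jun to Actn4 (0.964), Gria2 (0.962) and Pias4 (0.957). Fos was closest to Star (0.958), Arhgef17 (0.954) and Mta1 (0.952), and Fosb to Slc29a4 (0.979), Apba3 (0.974) and Tex38 (0.960). Junb was closest to Ltbr (0.962), Eprn (0.961) and Map1s (0.959), and Fosl2 to 9530026P05Rik (0.969), Ptchd3 (0.926) and Cox6b2 (0.925). Within the family Atf3 ran with Fosl1 (0.90) and Batf (0.84), and Jun with Fosb (0.80). Over the alternatives the correlation fell lowest for Batf and Prpf38a, at -0.43 with the mean of all probe sets, and highest and lowest values of the others were all positive.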

How the data were processed

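Total RNA of primary CD4+ T cells was labelled with biotin by in vitro transcription and hybridised to 8 arrays, per the labels' protocols. What the authors deposited is a table of linear intensity for 45101 probe sets. RMA and affy are named per the submitters' processing notes, and their versions are not given in the sources used here. Deposited values are not on RMA's log2 scale, and every array had a mean of 500 after trimming 2% at each end, so the step that made them is unknown. Background and detection calls are not given either, and precision is limited by the number of arrays.

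The log2 of the intensity was taken with no further normalization. Probe sets with 1 symbol in the platform annotation (34945; 932 had several, 9160 none and 64 were controls) gave 18193 genes, each represented by the probe set of highest mean. Genes above the 40th percentile (log2 5.22, signal 37.3) on at least 2 arrays were tested, 13983 in all. The 4 groups were fitted in 1 model (lmFit, contrasts.fit and eBayes of limma 3.58.1, R 4.3.3), with 4 residual and 1.90 prior degrees of freedom, and two-sided p-values were adjusted by Benjamini-Hochberg, threshold 0.05. SE is limma's moderated standard error. A log2 fold is the first named group minus the second, and a bound sets the brighter group's mean against the floor. The step was tested on simulated data.

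The 9 members and the gene lists were chosen with earlier results of these data known. Beside all members, up to 4 genes past the threshold per list and comparison, with the largest log2 fold, and the 3 genes with the highest correlation to each member are named. Mkl1 and Mkl2 of the lists were measured under their current symbols Mrtfa and Mrtfb. Promoters are RefSeq sequences on GRCm38.p6. Alternatives were median centring, cyclic loess, the mean of all probe sets, another or no filter, an offset of 16, a trend and robust fit, the 2 groups alone, a replicate block, and each array left out. Fits of each probe set and of signals raised to the floor were added after the data were seen.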

Additional observations from a re-analysis of the deposited data

How the results depend on the processing

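Atf3 and Fosl1 were called in both comparisons with the stimulated arrays, which made 2 members lower with dorsomorphin in stimulated cells and 2 higher on stimulation without it. The lower count was 1 with the 60th percentile filter and with no filter, 4 with the replicate block, 0 with only the 2 groups compared and 1 to 2 when 1 array was left out. The higher count was 1 with the 60th percentile filter, with no filter and with only the 2 groups compared, and 0 to 2 when 1 array was left out. The stricter filter left Fosl1 out of the test, and the replicate block added Fos (adjusted p 0.0338) and Jund (0.0244) to the first count and Batf (0.0456) to the calls on stimulation. For dorsomorphin in unstimulated cells 1 member, Jund (0.0254), was called lower with the replicate block, against 0. For the interaction 1 member, Atf3, was called lower with the 60th percentile filter, log2(value + 16) and the trend and robust fit, against 0. The labels repeat replicate numbers 1 and 2 in every group; deviations of same-numbered arrays correlated at 0.0687 to 0.178 over the 6 pairs of groups, not above 0.1 in every pair, so the numbers were not taken to pair the arrays, and the block changed no call of a member other than those given. The cause of each change was not tested unless stated.

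Some folds that were not called changed direction. With median centring these were Fosb (-0.047) for dorsomorphin in stimulated cells, Fosl2 (0.24) for stimulation without dorsomorphin, Fosl1 (0.18) for dorsomorphin in unstimulated cells, Junb (-0.018) for stimulation with dorsomorphin, and Fosb (-0.33) and Jund (-0.20) for the interaction. With cyclic loess they were Fosb (-0.082), Fosl2 (0.016), Fosl1 (0.17) and, for the interaction, Fosb (-0.37). With the mean of all probe sets they were Fosl2 (1.04) and Nfatc2 (0.40) for dorsomorphin in stimulated cells and Fosl1 (0.71), Braf (0.15), Mrtfb (0.25) and Nfatc2 (0.53) in unstimulated cells, of which Nfatc2, Braf and Mrtfb had been called. With log2(value + 16) the interaction of Jun was 0.0013. With signals raised to the floor Fosl1 (0.058) turned for stimulation with dorsomorphin and Fosb (-0.26) for the interaction, and Atf3 and Fosl1 were called in the interaction (0.0303 and 0.0370); raising removes the spread under the floor.

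When 1 array was left out, the log2 fold for dorsomorphin in stimulated cells ran from -0.82 to 1.24 for Fosb, -0.88 to 0.76 for Fosl2, -0.12 to 1.98 for Jun and -0.26 to 0.19 for Junb. For stimulation without dorsomorphin it ran from -0.98 to 1.07 for Fosb, -0.93 to 0.71 for Fosl2 and -1.75 to 0.82 for Jun. For dorsomorphin in unstimulated cells it ran from -1.37 to 0.31 for Fos, -0.85 to 0.98 for Fosb, -0.41 to 0.33 for Fosl1, -0.35 to 2.22 for Jun, -0.00082 to 0.44 for Batf and -0.94 to 0.12 for Atf3. For stimulation with dorsomorphin it ran from -0.71 to 1.06 for Fos, -0.72 to 1.10 for Fosb, -0.49 to 0.44 for Fosl1, -1.52 to 0.58 for Jun, -0.059 to 0.26 for Junb, -0.92 to 0.35 for Jund, -0.28 to 0.57 for Batf and -0.27 to 0.81 for Atf3. For the interaction it ran from -0.88 to 1.17 for Fosb, -1.48 to 0.16 for Fosl2, -1.28 to 1.28 for Jun and -0.36 to 0.91 for Jund. Over all alternatives, 742 of the members' values kept their direction and side of the threshold, 64 changed direction, 20 lost a call and 10 gained one.

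Counts over all genes moved too. With the replicate block 1968 genes were lower with dorsomorphin in stimulated cells and 1499 higher on stimulation without it. In unstimulated cells 1924 were lower with dorsomorphin in that fit. Genes called higher and lower with dorsomorphin in stimulated cells were 1358 and 1738, against 843 and 1229 with no filter, 0 and 0 with only the 2 groups, and 277 to 1400 and 681 to 1535 with 1 array left out. On stimulation without dorsomorphin they were 1256 and 2013, against 1594 and 1601 with cyclic loess, 745 and 923 with only the 2 groups, 849 and 1273 with no filter, 885 and 1242 with the mean of all probe sets, and 0 to 1187 and 0 to 1950 with 1 array left out, the 0 without either control array. For dorsomorphin in unstimulated cells they were 268 and 1557, against 154 and 752 with median centring, 67 and 816 with only the 2 groups, 586 and 2382 with the 60th percentile filter, 706 and 2397 with the trend and robust fit, and 0 and 0 without either control array. For the interaction they were 5 and 7, against 0 and 0 with median centring or the replicate block, 553 and 357 with log2(value + 16), 1231 and 636 with the 60th percentile filter and 1298 and 738 with the trend and robust fit. With 2 arrays per group and signals near the floor for Fosl1 and Fosb, small changes were not detectable.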
